A study of Mus musculus with 93 samples.

Results

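Neutrophils carry their antimicrobial proteins and proteases in granules of several classes, and 10 genes of such proteins were followed in mouse blood. The azurophil class was represented by Elane, Mpo, Prtn3 and Ctsg, the specific class by Ltf, Camp, Ngp and Lcn2, and the gelatinase class by Mmp8 and Mmp9. The genes were chosen by name, as standard constituents of the granules, out of 18193 genes that the arrays read with at least 1 probe set of a single gene symbol. Where a gene had several probe sets, the brightest by its mean on the 93 arrays was read.

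The arrays measured RNA of total white blood cells taken from the cheek of female FVB/NJ mice. The 28 control arrays came from wild type, tumor-free females matched to the tumor-bearing mice for age and parity. The 65 tumor arrays came from MMTV/c-MYC transgenic females with advanced mammary tumors, in which c-MYC or a more stable mutant form is driven by the hormone-responsive long terminal repeat of the mouse mammary tumor virus. Expression of the transgene is thus directed to the mammary gland, and several transgenic lines were used that the labels do not tell apart. Neither an age for each mouse nor an animal name is in the labels, so errors and p-values describe the spread between arrays. The labels divide the arrays into a training cohort, with 14 control and 32 tumor arrays, and one for validation with 14 control and 33 tumor arrays. Tumor arrays are treated here as 2 sets by the number in their label: 52 late-numbered arrays (training 6 to 32 and validation 9 to 33) and 13 early-numbered arrays (training 1 to 5 and validation 1 to 8).

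Granule proteins are made in sequence as a neutrophil matures in the bone marrow. Azurophil proteins are transcribed first, in promyelocytes, specific granule proteins next, in myelocytes and metamyelocytes, and gelatinase granule proteins last, in band cells, so that the class of a protein follows the stage at which its gene is active. Circulating neutrophils hold the finished proteins, and their transcripts of the early classes are low, while immature neutrophils released to the blood still carry such transcripts. In bulk RNA of blood, fewer cells of a type and less RNA per cell cannot be told apart.

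The 2 tumor sets differ in technical measures that bear on every comparison below. The bacterial spike-in transcript dap, added to RNA in the laboratory, lay between 1.74 and 3.55 on the log2 scale in control arrays, between 2.11 and 3.83 in early-numbered tumor arrays and between 6.57 and 10.8 in late-numbered tumor arrays. The 5′ minus 3′ difference of the actin control, which is more negative where 5′ ends are lost, lay between −0.9 and −0.5 in controls, between −2.3 and −0.4 in late-numbered arrays and between −2 and −1.2 in early-numbered arrays. The spike-in separated all late-numbered arrays from the controls, and the actin difference separated all early-numbered arrays from them, so technical and tumor differences cannot be told apart in these comparisons. Of the leukocyte markers Ptprc, Coro1a, Lsp1 and Tyrobp, the mean level lay between 12.1 and 12.5 in controls, between 12.0 and 12.95 in late-numbered and between 11.7 and 12.5 in early-numbered arrays; 2 of the 4 rose in late-numbered arrays, and 1 rose and 2 fell in early-numbered arrays. The neutrophil marker S100a9, a subunit of calprotectin, lay between 13.5 and 14.5 on all arrays, near the top of the scale.

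In the late-numbered tumor arrays 8 of the 10 granule genes rose above the controls and none fell. Across all 45037 probe sets tested, 43.8% were called in this comparison, 23.9% higher and 19.9% lower. The median difference of the 10 genes was 0.75 on the log2 scale, against 0.04 over all probe sets. All 4 azurophil genes rose, 3 of 4 specific genes rose, and 1 of 2 gelatinase genes rose, with class medians of 0.86, 0.90 and 0.42. Gelatinase values, here and below, read Mmp9 by its brightest probe set (0.11). Its second probe set was higher by 0.77, so the lower gelatinase median depends on the probe set read.

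**Figure D1:**
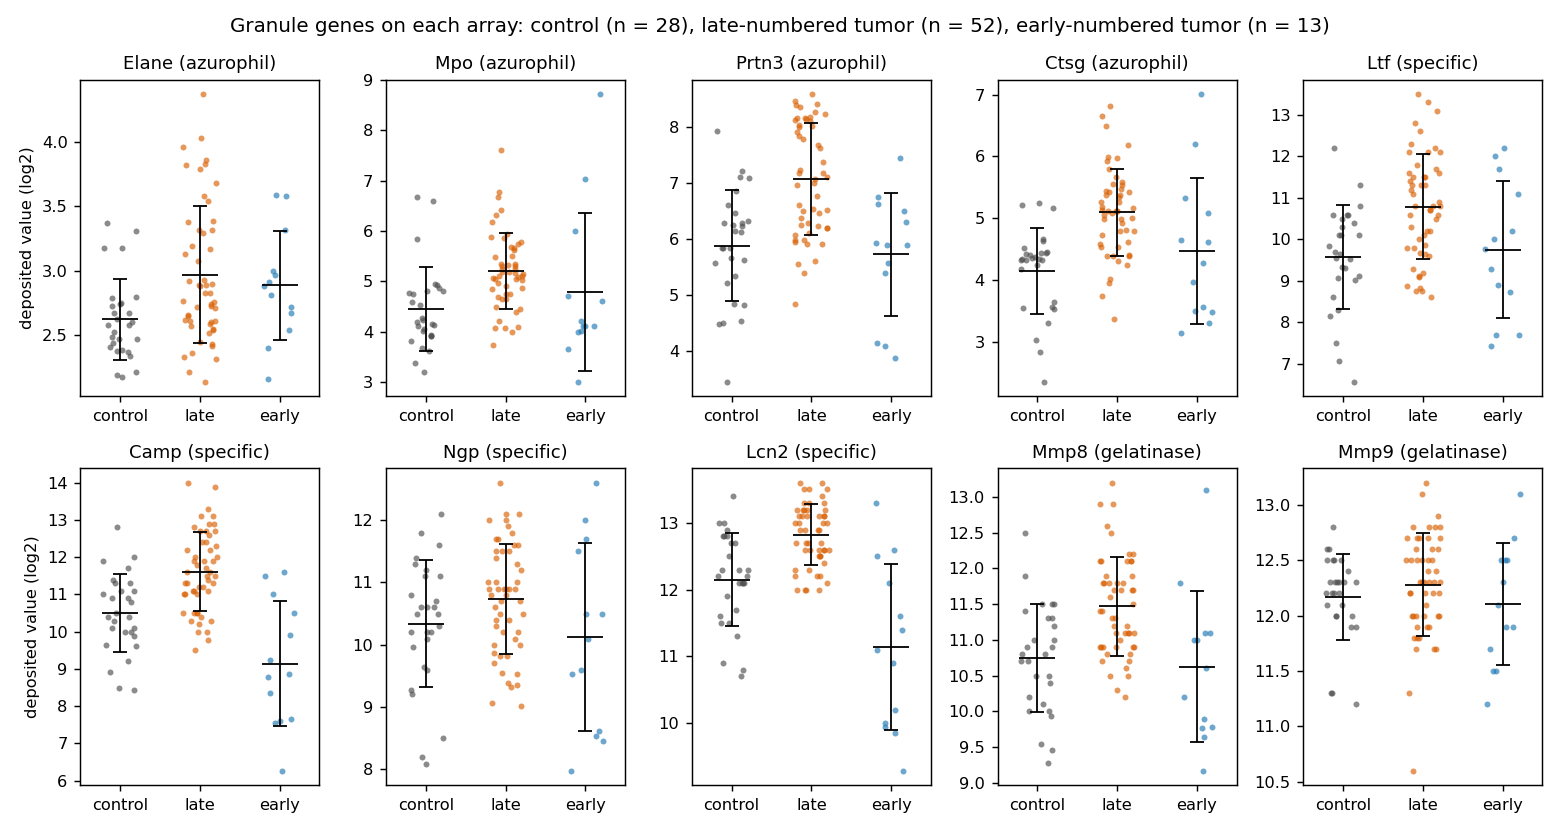
Deposited log2 value of each granule gene on each array, by set: control (n = 28), late-numbered tumor (n = 52) and early-numbered tumor (n = 13). Each point is 1 array and the bars give the mean ± SD. Late-numbered arrays are shifted upward for most genes with overlap throughout, and 5 early-numbered arrays lie below the lowest control for Camp and 5 for Lcn2.

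Among the azurophil genes, Prtn3 (proteinase 3, a serine protease) had a lowest, median and highest level of 3.46, 5.99 and 7.93 in control arrays, 4.85, 7.09 and 8.58 in late-numbered and 3.88, 5.9 and 7.44 in early-numbered tumor arrays. Of the late-numbered arrays 48 of 52 lay above the control mean and 16 above the highest control. The rise was 1.20 ± 0.23 (SE, limma adjusted p = 6.41e-06), or 2.29-fold. Ctsg (cathepsin G, another serine protease) ranged from 2.35 to 5.25 with a median of 4.34 in controls and from 3.36 to 6.82 with a median of 5.115 in late-numbered arrays. It rose by 0.95 ± 0.18 (adjusted p = 2.68e-06), and 21 of 52 late-numbered arrays exceeded the highest control, the largest number among the 10 genes.

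Mpo (myeloperoxidase, the enzyme that makes hypochlorous acid) had a lowest, median and highest level of 3.19, 4.205 and 6.67 in controls and 3.73, 5.16 and 7.6 in late-numbered arrays. It rose by 0.76 ± 0.21 (adjusted p = 0.00158), and although 44 of 52 arrays lay above the control mean, only 2 exceeded the highest control. Elane (neutrophil elastase) rose least of its class, by 0.35 ± 0.11 (adjusted p = 0.00415). Its levels were 2.18, 2.58 and 3.37 in controls and 2.14, 2.83 and 4.37 in late-numbered arrays. Its signal was weak, with 22.5% of all probe sets having a lower mean. Ctsg, at a mean of 4.72, also lay below the median probe set mean of 4.79.

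Among the specific granule genes, Ltf (lactoferrin, which binds iron) had levels of 6.57, 9.665 and 12.2 in controls and 8.62, 10.8 and 13.5 in late-numbered arrays. It rose by 1.23 ± 0.30 (adjusted p = 0.000285), or 2.34-fold, the largest mean rise of the 10 genes. Camp (the cathelicidin precursor, source of an antimicrobial peptide) had levels of 8.43, 10.45 and 12.8 in controls and 9.51, 11.55 and 14 in late-numbered arrays. It rose by 1.12 ± 0.26 (adjusted p = 0.000172), with 40 of 52 arrays above the control mean and 7 above the highest control. These 2 genes had wide ranges in every set, and most late-numbered arrays lay inside the control range.

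Lcn2 (lipocalin 2, which captures bacterial siderophores) was less spread. Its levels were 10.7, 12.2 and 13.4 in controls and 12, 12.9 and 13.6 in late-numbered arrays, where the SD was 0.46 against 0.70 in controls. It rose by 0.68 ± 0.15 (adjusted p = 0.000118), and 47 of 52 arrays lay above the control mean. Ngp (neutrophilic granule protein, a cystatin-like protein) did not pass the test, at 0.42 ± 0.23 (adjusted p = 0.137). Its levels were 8.09, 10.5 and 12.1 in controls and 9.02, 10.85 and 12.6 in late-numbered arrays, with 35 of 52 arrays above the control mean.

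Of the gelatinase class, Mmp8 (neutrophil collagenase, which in human neutrophils is usually placed in specific granules) had levels of 9.27, 10.8 and 12.5 in controls and 10.2, 11.4 and 13.2 in late-numbered arrays. It rose by 0.73 ± 0.18 (adjusted p = 0.000257), with 45 of 52 arrays above the control mean. Mmp9 (gelatinase B) had levels of 11.2, 12.25 and 12.8 in controls and 10.6, 12.3 and 13.2 in late-numbered arrays, and at 0.11 ± 0.10 it did not pass (adjusted p = 0.423). Mmp9 was the only one of the 10 genes with a second probe set, and the probe sets disagreed. The second, dimmer probe set (mean 11.4) was higher by 0.77 ± 0.13 in late-numbered arrays (adjusted p = 4.25e-07), and the mean of both was 0.44 higher (adjusted p = 0.00104).

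**Figure D2:**
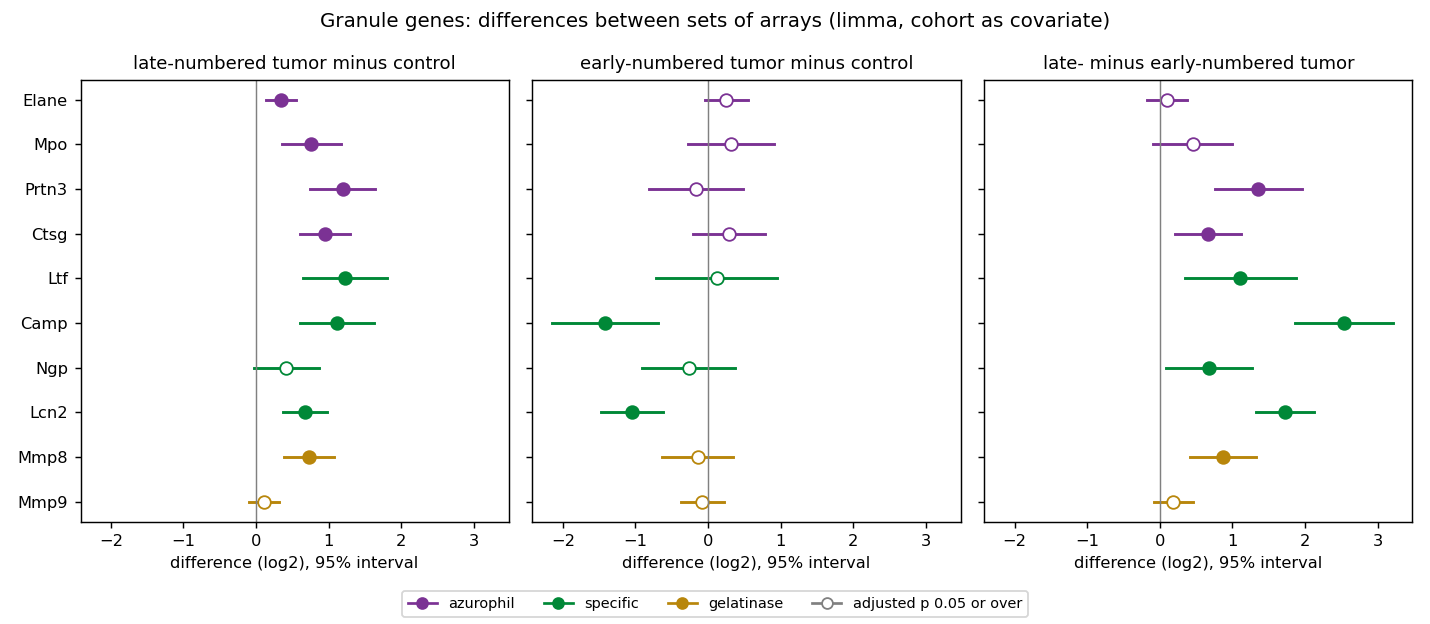
Difference in log2 level (horizontal axis) of each granule gene between sets of arrays, with its 95% interval, from limma with cohort as a covariate (28 control, 52 late-numbered and 13 early-numbered tumor arrays). Filled points passed an adjusted p under 0.05. The left panel shows 8 rises, the middle panel falls of Camp and Lcn2 alone, and the right panel 7 genes higher in late-numbered arrays, Camp at 2.54 and Lcn2 at 1.72 foremost.

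In the early-numbered tumor arrays no granule gene rose and 2 fell, both of the specific class. In this comparison 62.6% of all probe sets were called, 37.9% higher and 24.6% lower, with a median difference of 0.12 over all probe sets. The median over the 10 genes was −0.11, and by class it was 0.27 for azurophil, −0.66 for specific and −0.11 for gelatinase genes. Both comparisons share the control arrays.

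Camp had a lowest, median and highest level of 6.27, 8.85 and 11.6 in early-numbered arrays. It fell by 1.42 ± 0.37 (SE) on the log2 scale from the controls (adjusted p = 0.000658), or 2.68-fold, with 10 of 13 arrays below the control mean and 5 below the lowest control. Lcn2, at 9.29, 11.1 and 13.3, fell by 1.05 ± 0.22 (adjusted p = 2.98e-05), again with 10 of 13 arrays below the control mean and 5 below the lowest control. The remaining specific genes stood near the controls with wide errors. Ltf (7.44, 9.76 and 12.2) differed by 0.12 ± 0.42 (adjusted p = 0.816) and Ngp (7.98, 10.1 and 12.6) by −0.27 ± 0.33 (adjusted p = 0.489).

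None of the azurophil or gelatinase genes passed the test in the early-numbered arrays. Elane differed by 0.25 ± 0.15, Mpo by 0.31 ± 0.30, Ctsg by 0.29 ± 0.25 and Prtn3 by −0.16 ± 0.33, with adjusted p between 0.143 and 0.685. Mmp8 differed by −0.14 ± 0.25 (adjusted p = 0.639) and Mmp9 by −0.08 ± 0.15 (adjusted p = 0.676). The second Mmp9 probe set did not pass either, at −0.21 ± 0.19 (adjusted p = 0.321). These 13 arrays were more spread than the controls for every granule gene, with variances 1.24 (Prtn3) to 3.56 (Mpo) times those of the controls.

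Some single arrays lay at the ends of these ranges, and the spread without them was not computed. The array labelled tumor validation 6 had the highest Mpo (8.72) and Ctsg (7.01) of all 93 arrays, with Ngp at 12.6 and Lcn2 at 13.3. It was also among the 5 arrays of lowest correlation with the rest. Its median r with the other arrays was 0.94, against a median of 0.98 in controls and 0.95 in early-numbered arrays. At the other end, tumor training 1 had Camp at 6.27, Ngp at 7.98 and Lcn2 at 9.29, the lowest of all arrays, while its Elane (3.32) lay near the highest control (3.37). Among late-numbered arrays, tumor training 15 was highest of its set, or tied, for Prtn3, Ltf, Camp, Ngp, Lcn2, Mmp8 and Mmp9, and tumor training 8 stood beside it (Ltf 13.3, Camp 13.9) with the highest Mpo of the set (7.6). Tumor validation 28 departed from that pattern, with the highest Elane (4.37) and Ctsg (6.82) of the late-numbered arrays and Ltf at 9.68, near the control median.

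Set against each other directly, the tumor sets differed in 7 of the 10 genes, all higher in late-numbered arrays. Of all probe sets 68% were called here, 27% higher and 41% lower, and the median difference was −0.13. All 4 specific genes were called, with a class median of 1.42, against 2 of 4 azurophil genes (0.56) and 1 of 2 gelatinase genes (0.53). The largest differences were those of Camp, 2.54 ± 0.35 (adjusted p = 4.51e-10, 5.81-fold), and Lcn2, 1.72 ± 0.20 (adjusted p = 3.37e-12, 3.3-fold). For Camp 8 and for Lcn2 9 of the 13 early-numbered arrays lay below the lowest of the 52 late-numbered ones.

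Prtn3 was higher by 1.36 ± 0.31 (adjusted p = 6.49e-05) and Ctsg by 0.67 ± 0.23 (adjusted p = 0.00914), while Mpo (0.45, adjusted p = 0.145) and Elane (0.10, adjusted p = 0.535) did not pass. Ltf was higher by 1.11 ± 0.39 (adjusted p = 0.00985), Mmp8 by 0.87 ± 0.23 (adjusted p = 0.000647) and Ngp by 0.68 ± 0.30 (adjusted p = 0.0411). The call of Ngp was lost in 9 of 16 alternative settings. Mmp9 did not pass by its brightest probe set (0.18, adjusted p = 0.232), but did by the second one (0.99 ± 0.17, adjusted p = 6.5e-07).

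The comparisons were also made within each cohort. For late-numbered arrays, 8 of 10 genes were called in the training cohort alone, where 18.9% of all probe sets were called higher, and 3 (Prtn3, Ctsg and Camp) in the validation cohort alone, where 15.1% were. Ltf was higher by 1.46 in the training and 0.995 in the validation cohort, Camp by 1.23 and 1.00, Prtn3 by 1.49 and 0.89, and Mmp8 by 0.99 and 0.46. An interaction of set with cohort passed for none of the 10 genes in limma, with unadjusted p of 0.12 or more, and was called for 0 probe sets (990 at an unadjusted p under 0.05). For early-numbered arrays, Camp and Lcn2 were called lower in each cohort, Camp by −1.5 in the training and −1.39 in the validation cohort, and Lcn2 by −1.3 and −0.92, where 19.3% and 18.1% of all probe sets were called lower. In that set no granule gene had an interaction p under 0.05 either, where 145 probe sets were called.

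The calls depended on the treatment of the control probe sets. With 3 principal components of the control probe sets as covariates, which also take up the spike-in difference, 1 of the 10 genes (Ctsg, 2.78, adjusted p = 0.000696) was called in late-numbered arrays, where 11.1% of probe sets were called higher. The differences of the other 7 genes called without the components were not smaller in that fit, from 0.61 for Elane and 0.79 for Lcn2 to 2.11 for Camp and 2.26 for Ltf, but did not pass, with adjusted p from 0.0653 to 0.416. In early-numbered arrays Camp was then −0.52 (adjusted p = 0.309) and Lcn2 −0.51 (adjusted p = 0.0892). With the actin difference as a covariate instead, Camp (−1.55, adjusted p = 0.0154) and Lcn2 (−1.2, adjusted p = 0.0016) were called in early-numbered arrays, where 18.6% of all probe sets were called lower, and 8 of 10 genes in late-numbered arrays, where 24.8% were called higher.

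Since Camp and Ltf are both specific granule genes, and parted in the early-numbered arrays, the promoter sequences of the specific class are shown with that of Prtn3, the azurophil gene with the largest rise. RefSeq sequences of assembly GRCm38.p6 were found for 9 of the 10 genes, all but Mmp9. The 250 bases before the transcription start are given 5′ to 3′ on the gene's strand, at chr9:111019042-111019291 (plus strand) for Ltf, chr9:109849457-109849706 (minus strand) for Camp, chr9:110419558-110419807 (plus strand) for Ngp, chr2:32387740-32387989 (minus strand) for Lcn2 and chr10:79879417-79879666 (plus strand) for Prtn3. Capitals mark letters of the C/EBP motif TTGCNNAA, of the PU.1 core GAGGAA and of the RUNX motif TGTGGT, searched on both strands; no matches overlapped.
Ltf: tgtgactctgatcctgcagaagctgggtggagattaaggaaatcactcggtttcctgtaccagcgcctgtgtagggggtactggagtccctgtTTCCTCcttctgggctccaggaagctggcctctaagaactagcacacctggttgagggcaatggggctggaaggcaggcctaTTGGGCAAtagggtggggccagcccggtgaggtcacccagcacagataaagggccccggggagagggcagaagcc
Camp: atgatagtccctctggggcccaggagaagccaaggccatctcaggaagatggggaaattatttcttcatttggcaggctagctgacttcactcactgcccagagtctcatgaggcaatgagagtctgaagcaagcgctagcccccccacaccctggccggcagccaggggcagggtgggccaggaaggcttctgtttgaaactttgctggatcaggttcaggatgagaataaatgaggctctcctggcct
Ngp: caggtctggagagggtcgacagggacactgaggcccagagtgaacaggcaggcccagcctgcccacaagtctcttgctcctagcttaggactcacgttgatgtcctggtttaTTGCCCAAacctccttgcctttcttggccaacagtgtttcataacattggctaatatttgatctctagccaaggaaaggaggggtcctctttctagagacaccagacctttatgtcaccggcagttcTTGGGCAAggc
Lcn2: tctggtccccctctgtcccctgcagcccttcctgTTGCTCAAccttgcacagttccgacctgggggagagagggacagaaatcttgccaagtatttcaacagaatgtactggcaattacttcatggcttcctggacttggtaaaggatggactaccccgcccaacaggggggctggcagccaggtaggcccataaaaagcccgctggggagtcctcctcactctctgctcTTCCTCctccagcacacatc
Prtn3: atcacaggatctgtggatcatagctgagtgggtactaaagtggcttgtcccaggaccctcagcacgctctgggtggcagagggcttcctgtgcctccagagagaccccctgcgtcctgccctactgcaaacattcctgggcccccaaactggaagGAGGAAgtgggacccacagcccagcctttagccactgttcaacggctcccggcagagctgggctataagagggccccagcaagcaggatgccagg
C/EBP factors and PU.1 are regulators of granulocyte genes. TTGCNNAA was present in 4 of the 9 promoters, against 9.56% of 32851 promoters of the same length, in Ltf (first base 75 bases before the start), Ngp (138), Lcn2 (216) and Mmp8 (19). It was in none of the 4 azurophil promoters and not in Camp. GAGGAA was present in 7 of 9, against 23.3% of all promoters: in all 4 azurophil genes, Ltf, Lcn2 and Mmp8. TGTGGT was present in Ctsg alone, against 14% of all promoters. The Camp window held none of the 3 motifs. A match or its absence describes the letters of these windows and no more.

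How far the genes kept their proportions was described by the difference between 2 genes on the same array, relative to the mean of the controls of the same cohort. Among the 45 pairs, Ltf minus Camp was the only one for which every early-numbered array lay outside the control range. It averaged 1.52 ± 0.33 (SD, n = 13) with a range of 0.99 to 2.21, where the controls lay between −0.82 and 0.48. The late-numbered arrays stayed near the controls for this pair, at 0.11 ± 0.41 (SD, n = 52), with 9 above the highest control. Ltf and Camp thus moved together from array to array within the early-numbered set (r = 0.98) while their offset differed from the controls by more than 1 log2 unit on average. The actin 5′ minus 3′ difference averaged −1.42 in these arrays against −0.64 in controls, and its part in this offset was not tested.

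Camp and Ngp parted in both tumor sets and in opposite directions. Camp minus Ngp averaged 0.70 ± 0.42 (SD) in late-numbered arrays, 33 of 52 above the highest control, and −1.15 ± 0.48 in early-numbered arrays, 12 of 13 below the lowest control. It was the only pair for which most late-numbered arrays lay on the same side outside the control range. Ltf minus Ngp came close, at 0.82 ± 0.53 (SD), with 26 of 52 late-numbered arrays above the highest control and 1 below the lowest. Among the early-numbered arrays 9 pairs had most arrays outside on the same side, each with Camp or Lcn2 in it. Lcn2 minus Mmp8, a tight pair in the controls (SD 0.21), averaged −0.90 ± 0.53 in early-numbered arrays, 10 of 13 below the lowest control, and −0.06 ± 0.33 in late-numbered arrays. Mpo minus Camp averaged 1.74 ± 1.13 in early-numbered arrays, 8 of 13 above the highest control. These pairs were picked out of 45 after their values were seen, and no test was made.

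**Figure D3:**
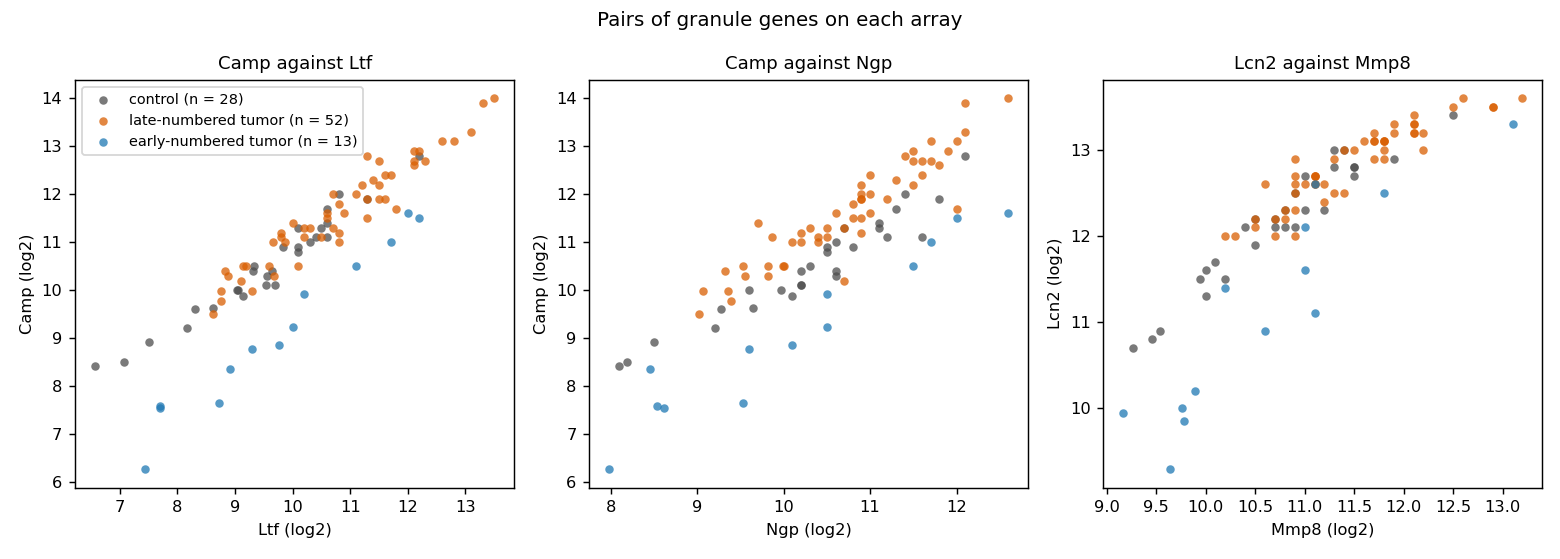
Log2 level of Camp against Ltf, Camp against Ngp and Lcn2 against Mmp8, 1 point per array, for control (n = 28), late-numbered (n = 52) and early-numbered tumor arrays (n = 13). The early-numbered arrays run below and parallel to the rest for Camp against Ltf, 13 of 13 outside the control range of the difference, and below the controls for Lcn2 against Mmp8 in 10 of 13 arrays.

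By class, the mean difference of an array from the controls of its cohort described which granule class moved in which array. The azurophil mean was above that of the controls in 50 of 52 late-numbered arrays (0.82 ± 0.59, SD), the specific mean in 41 (0.86 ± 0.90) and the gelatinase mean in 42 (0.42 ± 0.59). The gelatinase mean leaves out the second Mmp9 probe set. Azurophil minus specific averaged −0.05 ± 0.70 in these arrays, 23 above 0 and 29 below. In the azurophil mean, the dim Elane (mean level 2.85, rise 0.35) weighs as much as each other gene. The mean without Elane was not computed. In early-numbered arrays the azurophil mean was 0.16 ± 0.83, the specific mean −0.67 ± 1.45 and the gelatinase mean −0.13 ± 0.74. Azurophil minus specific was there 0.83 ± 1.00, above 0 in 10 of 13 arrays.

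Correlation between genes within each set asked which of them varied together between arrays. Of 135 relations (45 pairs in 3 sets, values centred within cohort, two-sided permutation with 100000 resamples), 97 passed after Benjamini-Hochberg adjustment: 34 of 45 in controls, 39 in late-numbered and 24 in early-numbered arrays. The specific genes formed a tight block in each set, with Pearson r from 0.77 to 0.98 in controls, 0.78 to 0.96 in late-numbered and 0.97 to 0.99 in early-numbered arrays, and all 6 pairs passed in each. Ltf and Camp had r = 0.97 (Spearman's rho = 0.97, adjusted permutation p = 2.87e-05) in controls and 0.96 (rho = 0.95, adjusted p = 2.87e-05) in late-numbered arrays, and without the 2 arrays farthest from the median of Ltf r was 0.97 and 0.95. The raw p of these pairs, 1e-05, is the smallest the resamples can give.

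The azurophil genes were no such block. Their 6 pairs had r from −0.03 to 0.55 in controls, where 2 passed, from 0.27 to 0.73 in late-numbered arrays, where 5 passed, and from 0.01 to 0.82 in early-numbered arrays, where 1 passed. Elane and Prtn3, which are neighbours in the genome, had r = 0.73 (rho = 0.73, adjusted p = 2.87e-05; 0.71 without the 2 farthest arrays) in late-numbered arrays and 0.26 (rho = 0.20, adjusted p = 0.216) in controls. Mpo and Ctsg had r = 0.55 (rho = 0.53, adjusted p = 0.00408) in controls and 0.27 (rho = 0.19, adjusted p = 0.0749) in late-numbered arrays. In late-numbered arrays Mpo had r = 0.64 with Camp (rho = 0.54, adjusted p = 2.87e-05; 0.51 without the 2 farthest arrays) and 0.49 with Elane (rho = 0.45, adjusted p = 0.000685; 0.43 without them). Whether any r differed between sets was not tested, and the dimness of Elane and Ctsg bears on their values.

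The gelatinase pair Mmp8 and Mmp9 had r = 0.81 in controls (rho = 0.78), 0.80 in late-numbered (rho = 0.86) and 0.96 in early-numbered arrays (rho = 0.90), each with an adjusted p of 2.87e-05. Mmp8 ran closer to Lcn2 than to Mmp9 in controls (r = 0.96, rho = 0.92, adjusted p = 2.87e-05) and in late-numbered arrays (r = 0.93, rho = 0.92, adjusted p = 2.87e-05). All 8 pairs of a specific with a gelatinase gene passed in each set. Between azurophil and specific genes 13 of 16 pairs passed in late-numbered arrays (r from 0.22 to 0.66), 12 in controls and 5 in early-numbered arrays. The median r of these pairs was 0.47, 0.62 and 0.52 in that order, so the counts do not rank the sets by r.

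**Figure D4:**
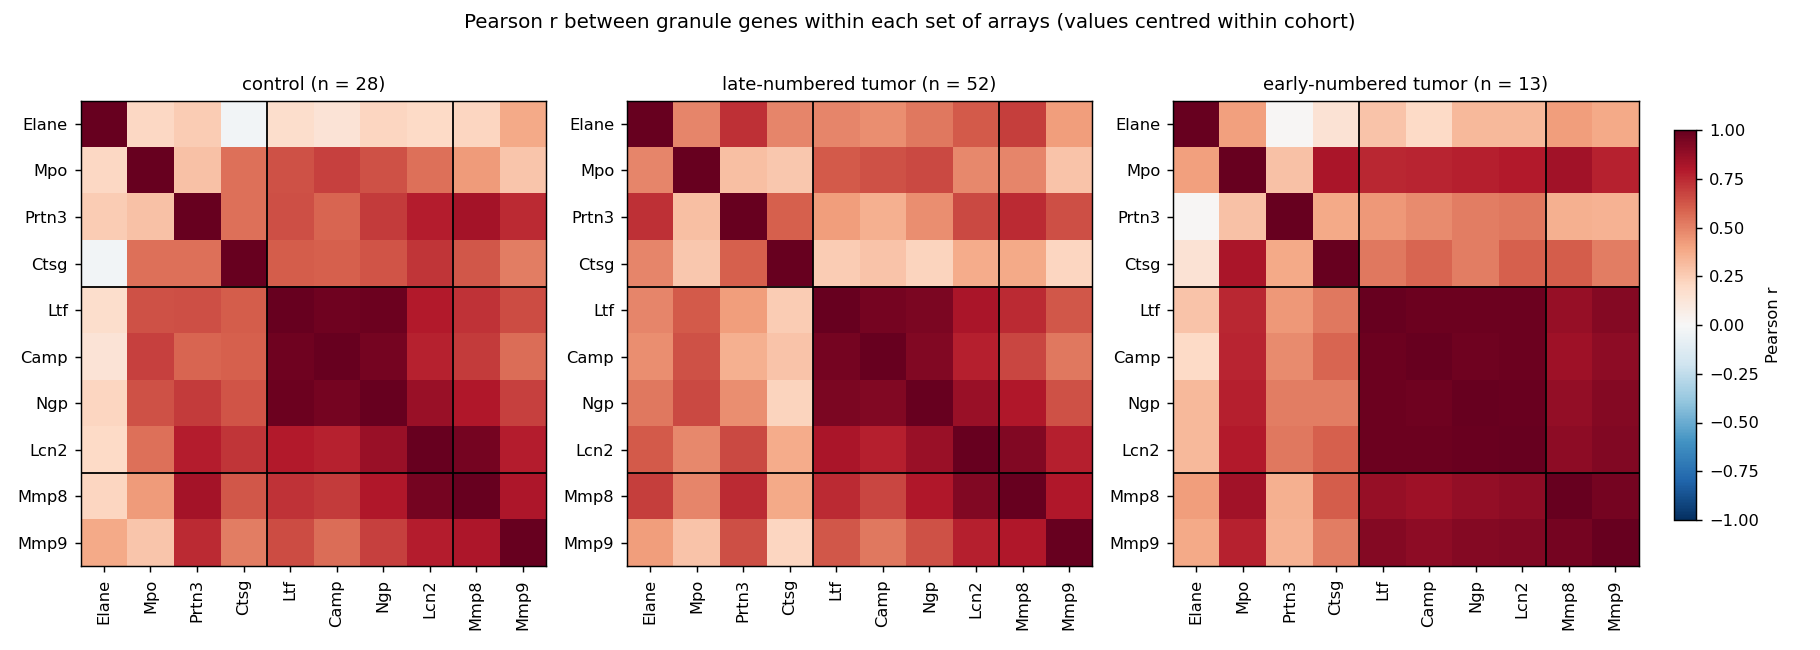
Pearson r between the granule genes within control, late-numbered and early-numbered tumor arrays, values centred within cohort; lines part the azurophil, specific and gelatinase classes and colour runs from −1 to 1. The specific block is dark in all 3 panels (r of 0.77 or more), whereas pairs of azurophil genes range from −0.03 to 0.82.

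Other genes ran with each class over the 52 late-numbered arrays, as a description by Pearson r with the mean of the class. For the azurophil class the 5 nearest were Lbp (r = 0.865), Saa3 (0.861), Stx18 (0.856), Fcnb (0.852) and Trappc1 (0.839). In the 28 controls the same genes had r of 0.78, 0.724, 0.595, 0.804 and 0.442. For the specific class they were AA467197 (0.913), Prom1 (0.912), Itgb2l (0.907), Reck (0.897) and Olfm4 (0.895), with r of 0.692 to 0.805 in controls. For the gelatinase class they were Fpr2 (0.952), Dgat2 (0.947), Ifnlr1 (0.942), Klf5 (0.941) and Ckap4 (0.94), with r of 0.76 to 0.93 in controls.

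The wider contents of the granules were read from 4 lists of 25 measured genes in all. In late-numbered arrays 17 rose and 2 fell, with a median difference of 0.55, and in early-numbered arrays 2 rose and 10 fell, with a median of −0.24. Over all probe sets 23.9% were called higher and 19.9% lower in late-numbered arrays, and 37.9% and 24.6% in early-numbered arrays. These shares are the background for the counts of every list below. Of the other specific granule genes 8 of 9 rose in late-numbered arrays and 1 fell, among them Cyba (the p22phox subunit of the oxidase, 0.87 ± 0.07), Pglyrp1 (a peptidoglycan-binding protein, 0.71 ± 0.10) and Hp (haptoglobin, 0.71 ± 0.10), while Ceacam1, an adhesion molecule, fell by 0.61 ± 0.10. In early-numbered arrays none of the 9 rose and 4 fell: Cyba by 1.63 ± 0.09 (adjusted p = 4.29e-28), Pglyrp1 by 0.77 ± 0.14, Hp by 0.76 ± 0.15 and Ceacam1 by 0.35 ± 0.14 (adjusted p = 0.0266).

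The other azurophil and lysosomal genes showed less. Of 6 measured, 2 rose in late-numbered arrays, Cd68 (a lysosomal glycoprotein also of monocytes, 0.66 ± 0.11) and Arsb (arylsulfatase B, 0.53 ± 0.10), and the list's median was 0.05. In early-numbered arrays 3 fell, among them Cd68 by 0.96 ± 0.15 and Lyz1 (lysozyme) by 0.25 ± 0.05. Of 3 other gelatinase granule genes, Slc11a1 (the metal transporter Nramp1, 1.07 ± 0.13) and Adam8 (0.55 ± 0.13) rose in late-numbered arrays, and in early-numbered arrays Adam8 fell by 0.47 ± 0.19 and Arg1 (arginase) rose by 0.77 ± 0.26. The rise of Arg1 was one of the mean and not of the median, which was 3.16 in early-numbered arrays and 3.26 in controls. Its highest early-numbered value was 8.77, on tumor training 3. Of 7 secretory vesicle genes, 5 rose and 1 fell in late-numbered arrays, led by the integrin chains Itgb2 (0.49 ± 0.04) and Itgam (1.51 ± 0.14), which fell in early-numbered arrays by 0.58 ± 0.06 and 0.57 ± 0.20.

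**Figure D5:**
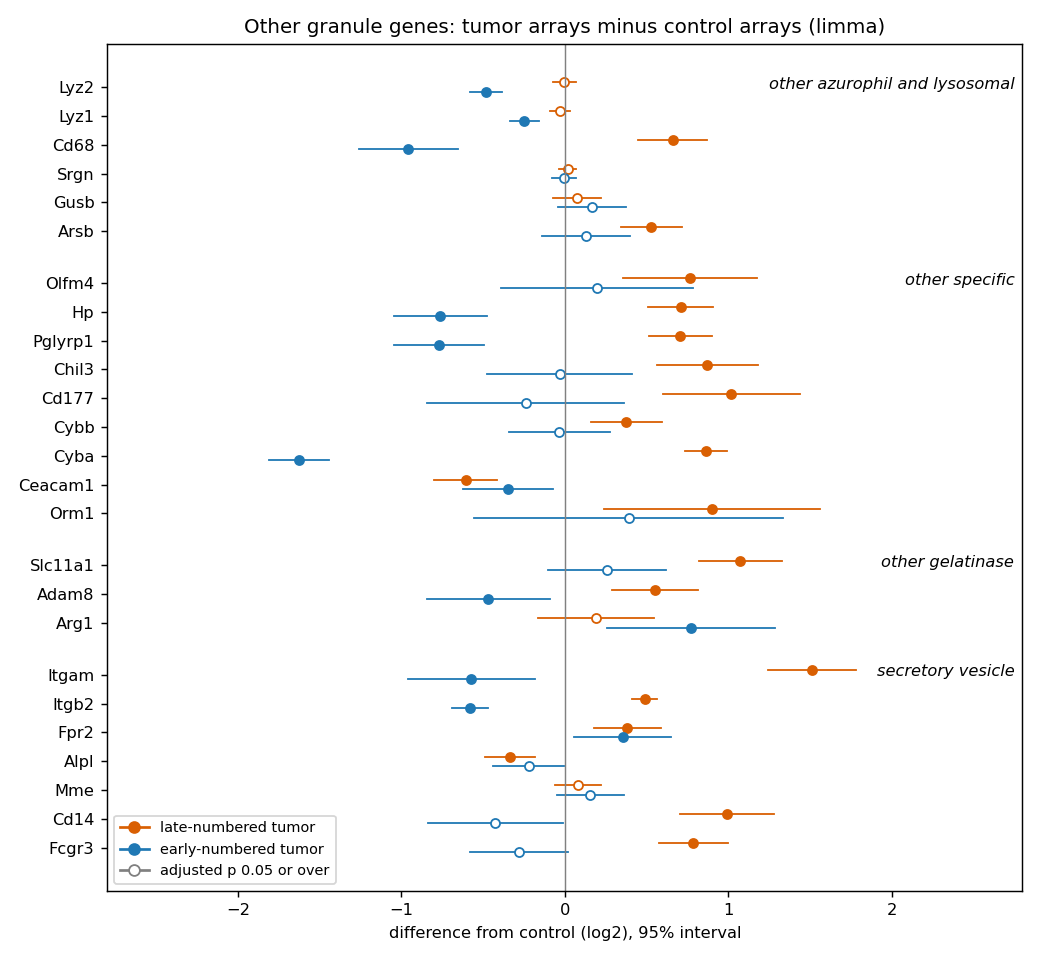
Difference in log2 level from the 28 control arrays, with its 95% interval, for 25 other genes of azurophil, specific and gelatinase granules and of secretory vesicles, in late-numbered (n = 52) and early-numbered (n = 13) tumor arrays; filled points passed an adjusted p under 0.05 in limma. Of the late-numbered differences 17 lie above 0 and passed, and of the early-numbered ones 10 lie below 0 and passed, Cyba farthest at −1.63.

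Genes that process or inhibit granule proteases did not move as a group. Slpi (the secretory leukocyte protease inhibitor, which blocks elastase and cathepsin G) rose by 0.83 ± 0.09 in late-numbered arrays (adjusted p = 6.5e-13) and fell by 0.88 ± 0.13 in early-numbered arrays (adjusted p = 2.2e-08). Stfa3 (a stefin, a cysteine protease inhibitor) rose by 1.76 ± 0.40 in late-numbered arrays. Serpinb1a, an inhibitor of elastase, fell by 0.34 ± 0.12 and 0.68 ± 0.18 in late- and early-numbered arrays. Ctsc, the protease that activates the azurophil serine proteases, did not pass in either set (0.18, adjusted p = 0.0577, and 0.20, adjusted p = 0.114). In all, 2 of 6 rose and 1 fell in late-numbered arrays and 3 fell in early-numbered arrays.

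Of 7 transcription factors of granule genes measured, 3 rose and 2 fell in late-numbered arrays. Spi1 (PU.1) rose by 1.35 ± 0.14, Cebpd by 1.30 ± 0.14 and Cebpb by 1.18 ± 0.14, while Myb, active in progenitors, fell by 0.87 ± 0.09. Of the 4 progenitor markers, Myb among them, the other 3 rose in late-numbered arrays: Kit by 1.08 ± 0.34, Flt3 by 0.73 ± 0.12 and Cd34 by 0.42 ± 0.16. In early-numbered arrays Spi1 (−0.12, adjusted p = 0.61), Cebpd (−0.04, adjusted p = 0.858) and Cebpb (0.31, adjusted p = 0.171) did not pass, Myb fell by 0.53 ± 0.13 and 1 of the 7, Runx1, rose by 0.34 ± 0.12; Runx1 is named here after its value was seen. Of the progenitor markers Cd34 rose there by 1.15 ± 0.22, Myb fell and the other 2 did not pass. Cebpe, the factor of specific granules, was not measured by a probe set of its own.

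Markers of other cells were counted in the same comparisons. Of all probe sets 23.9% were called higher and 19.9% lower in late-numbered arrays, and 37.9% and 24.6% in early-numbered arrays. A count near these shares does not set a list apart. Of 6 mature neutrophil markers, Mmp9 among them, 4 rose in late-numbered arrays, Cxcr2 by 0.74 ± 0.10 and Csf3r by 0.92 ± 0.13, S100a8 by 0.11 ± 0.04 and Il1b by 0.30 ± 0.13. In early-numbered arrays Cxcr2 rose by 0.75 ± 0.15 (adjusted p = 6.45e-06), Il1b fell by 0.56 ± 0.19 and the other 4 did not pass. The mean of the list lay between 12.0 and 12.7 in controls, 10.8 and 13.2 in late-numbered and 11.8 and 13.03 in early-numbered arrays. B cell markers fell in both sets, 5 of 6 in each, and their mean lay between 8.53 and 10.1 in controls, 6.93 and 10.1 in late-numbered and 7.27 and 9.33 in early-numbered arrays. Of 6 T cell markers 3 fell in late-numbered and 5 in early-numbered arrays. Of 4 NK cell markers 1 rose and 1 fell in late-numbered arrays, and all 4 fell in early-numbered arrays. Of 5 erythroid markers none was called in late-numbered arrays and 4 rose in early-numbered arrays, where their mean lay between 6.17 and 8.99 against 6.14 and 8.90 in controls. None of 5 basophil and mast cell markers was called in late-numbered arrays, and 3 fell in early-numbered arrays. Of 5 platelet markers none and 2 fell in late- and early-numbered arrays. Of 4 monocyte markers 2 and 1 rose, and of 4 eosinophil markers 1 rose in each set and 1 fell in early-numbered arrays. Of 7 genes of dividing cells 2 rose and 1 fell in late-numbered arrays and 5 rose in early-numbered arrays, where their mean lay between 6.60 and 8.95 against 6.05 and 7.44 in controls. Of the 10 mammary and milk genes 6 rose in late-numbered arrays, and 3 rose and 1 fell in early-numbered arrays. These genes were dim, with a mean under 5 for all 10 in control and early-numbered and for 9 in late-numbered arrays. Casein Csn2 was above 4 on 14 of 52 late-numbered, 1 of 13 early-numbered and 0 of 28 control arrays. Its median was 2.635 in late-numbered arrays and 2.365 in controls.

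Within each set, controls included, the granule genes ran against the B cell marker Cd79b. The r was −0.47 (Prtn3) to −0.15 (Ctsg) over the 28 controls. It was −0.67 (Mpo) to −0.11 (Ctsg) over the 52 late-numbered arrays and −0.89 (Ltf) to −0.12 (Elane) over the 13 early-numbered arrays. With S100a9 the r was −0.48 to −0.26 in late-numbered, 0.12 to 0.77 in early-numbered and 0.15 to 0.59 in control arrays. With the erythroid marker Alas2 it was −0.31 (Camp) to 0.01 (Prtn3) in control and −0.53 (Camp) to −0.01 (Mmp9) in late-numbered arrays. In early-numbered arrays it was −0.81 (Mpo) to −0.19 (Prtn3), with Mmp8 at −0.72. In that set tumor validation 6 had the lowest Alas2 (10.5, against a median of 13.8) and the highest Mpo (8.72) and Mmp8 (13.1). The r without this array was not computed. With the spike-in dap the r was −0.48 (Camp) to −0.16 (Mmp9) within the late-numbered arrays. It was −0.54 (Ctsg) to 0.06 (Elane) within the controls and −0.43 (Ctsg) to −0.12 (Ltf) within the early-numbered arrays. In the 14 late-numbered arrays with Csn2 above 4, the mean of every granule gene was lower than in the other 38, for instance 10.6 against 10.9 for Ltf and 6.53 against 7.27 for Prtn3. Without the arrays with Csn2 above 4, the count of rises stayed at 8 of 10, where 22.5% of all probe sets were called higher. The part of the other cell types in the differences was not tested. The study counted leukocyte types in blood taken after euthanization. It reported similar proportions in mice with advanced tumors and in matched controls. No such counts are in the labels of these arrays.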

How the data were processed

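RNA of total white blood cells was amplified (NuGEN Ovation) and hybridized to Affymetrix mouse arrays. RMA was run by the authors (background correction, quantile normalization, 1 value for each probe set) and its log2 values were deposited. The RMA version is not given in the sources used here. Per its methods the study adjusted expression for principal components of control probe sets, but it is unclear if this was done before deposit. In the deposited values the spike-in dap still separated late-numbered arrays (6.57 to 10.8) from controls (1.74 to 3.55). There were 45101 probe sets, including 64 controls, with values from 1.23 to 14.9 in steps of 0.01 below 10 and of 0.1 from 10, where 8.17% of values lay. Array medians ran from 4.3 to 4.91. Arrays give no counts; their number and the rounding limit the precision. None of the arrays were identical.

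The 45037 remaining probe sets were tested with limma 3.58.1 in R 4.3.3 (lmFit, eBayes with an intensity trend), with the 3 sets and cohort in 1 fit over 93 arrays, two-sided, with Benjamini-Hochberg adjustment over all of them and a call at an adjusted p under 0.05. Errors of differences are SE, errors of levels SD. Genes were named from 34945 probe sets with a single symbol in the platform annotation. Pearson and Spearman correlations within sets were tested by permutation (Python 3.11.15, numpy 2.4.6, scipy 1.17.1). The limma step was tested on simulated data. The arrays were split by number because control probe sets had been seen to part there. The 10 genes, the gene lists and the tests were chosen with earlier results of these data known. By rule, up to 4 genes of a list were named, those with the smallest p in late-numbered arrays, and the 5 genes most like each class. Other listed genes are given as counts. Promoter sequences came from RefSeq (GRCm38.p6). The closing section gives the alternatives tried.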

Additional observations from a re-analysis of the deposited data

Results flagged for a closer look

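Camp and Lcn2 differed between the tumor sets, higher than the controls in late-numbered and lower in early-numbered arrays. The difference between the tumor sets itself was 2.538 for Camp (limma adjusted p = 4.51e-10) and 1.724 for Lcn2 (adjusted p = 3.37e-12). The actin 5′ minus 3′ difference averaged −0.54 in late-numbered and −1.42 in early-numbered arrays, and the spike-in dap 8.56 and 2.70. With the actin difference as a covariate the tumor sets differed by 2.69 for Camp (adjusted p = 4.51e-05) and 1.90 for Lcn2 (adjusted p = 1.41e-06), and with 3 principal components of the control probe sets by 2.63 (adjusted p = 0.0573) and 1.30 (adjusted p = 0.126).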

How the results depend on the processing

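Over 10 genes, 168 recomputed differences of late-numbered arrays from controls gave the same direction and side of the threshold in 152, lost the call in 12, gained it in 2 and reversed in 2. For early-numbered arrays the numbers were 152, 2, 1 and 13 of 168, and between the tumor sets 130, 21, 4 and 3 of 158. The count of rises in late-numbered arrays, 8, became 3 in the validation cohort alone and 1 with 3 principal components of the control probe sets. Of all probe sets 15.1% and 11.1% were called higher in these settings. In the validation cohort the 8 differences were 0.33 (Elane) to 1.00 (Camp), and with the components 0.61 (Elane) to 2.78 (Ctsg). In early-numbered arrays those components gave 1 rise (Elane, 0.49, adjusted p = 0.0203) and 0 falls in place of 2. There 27.6% of all probe sets were called higher and 20.7% lower. Between the tumor sets the count of 7 became 3 in the validation cohort alone, 1 with the components and 4 with the actin covariate, while Camp was 2.40, 2.63 and 2.69 and Prtn3 1.22, 0.91 and 0.92. In these settings 23.1%, 16.2% and 20.7% of all probe sets were called higher.

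Reversed values belonged to differences that had not passed the test. Mmp9 was −0.054 in late-numbered arrays in the validation cohort alone and −0.32 with the components, 0.039 and 0.313 in early-numbered arrays, and −0.093 and −0.636 between the tumor sets. In early-numbered arrays Ltf was −0.20 against the validation controls alone, −0.14 with the replicate block, −0.062 with array weights, −0.47 with the actin covariate and −0.014 without the 5 arrays of lowest correlation with the rest. Prtn3 there was 0.30 with the components, 0.23 with the actin covariate and 0.006 after a further quantile normalization, where Elane was −0.006. Ngp was 0.47 and Mmp8 0.34 with the components. Between the tumor sets Elane was −0.046 with the actin covariate. The cause was not tested.

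The replicate numbers of controls and tumor arrays did not pair them: over 28 pairs of the same cohort and number the median correlation of deviations was −0.03 (−0.43 to 0.29), and 7 exceeded 0.1. With a replicate block of cohort and number, 8 genes rose in late-numbered and 2 fell in early-numbered arrays, and between the tumor sets Ngp lost its call (1.23, adjusted p = 0.0832). With this block 13.9% of all probe sets were called higher in late-numbered arrays and 22.4% lower in early-numbered arrays. Ngp rose in late-numbered arrays (0.70, adjusted p = 0.0224) when they were set against the training controls alone. A filter on dim probe sets removed Elane and Ctsg. Centring the arrays on their medians moved the median difference of all probe sets in early-numbered arrays from 0.12 to 0.19, with the same calls of Camp and Lcn2. Leaving out tumor validation 19 or the arrays with Csn2 above 4, both chosen after seeing the data, left 8 rises in late-numbered arrays. Of all probe sets 24.7% and 22.5% were then called higher.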
